A study of Mus musculus with 12 samples.

Results

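The genes described here are 10 members of the Gq, phospholipase C, protein kinase C and calcineurin route on the NanoString® nCounter® Mouse PanCancer Pathways panel, out of 770 gene probes in all. They are the G protein alpha subunits *Gnaq* and *Gna11*, the phospholipases *Plcb1*, *Plcb4* and *Plce1*, the kinase *Prkca*, the calcineurin catalytic subunits *Ppp3ca*, *Ppp3cb* and *Ppp3cc*, and the calcium channel *Cacna1g*. They were chosen by their place in this pathway, with the levels and fold changes of the same 12 samples already known, and no threshold on a value was set. Counts of members that changed are therefore read only beside the share of the whole panel, and adjusted p values are the outcome of a fit over all panel genes, not support for the choice.

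The samples are total RNA of 2 murine hepatocellular carcinoma lines, in 4 groups of 3 biological replicates. A liver tumour raised by hydrodynamic injection of constructs for activated AKT and activated NRAS gave rise to AKT/NRAS. In its derivative AKT Cre/NRAS (AKT/NRAS Cre in the sample labels) the floxed AKT was excised by transfected Cre, so that both lines carry activated NRAS. Each line received a pool of siRNA against *Dusp4*, a phosphatase that inactivates ERK, or a negative control pool (SCR). The groups are AKT Cre/NRAS siRNA, AKT Cre/NRAS SCR, AKT/NRAS siRNA and AKT/NRAS SCR. Each line is a single derived line, so a difference between the lines belongs to these lines and cannot be told apart from changes acquired in culture or at Cre transfection.

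As background, receptors coupled to Gq or G11 activate phospholipase C beta, which splits a membrane lipid into inositol trisphosphate and diacylglycerol. Inositol trisphosphate releases calcium from the endoplasmic reticulum, diacylglycerol together with calcium activates the conventional protein kinases C, and calcium bound to calmodulin activates calcineurin, which dephosphorylates NFAT transcription factors. In hepatocytes this route is known from the calcium response to vasopressin and to alpha-adrenergic agonists. Phospholipase C epsilon differs from the beta enzymes in that it is also activated directly by Ras family GTPases.

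Recovered counts per sample totalled 641790 to 1081646. Values are given as normalized counts, that is, probe counts scaled with 15 reference genes and raised to a common floor of 27.1, and they compare samples for 1 probe, not 1 probe with another. Between 252 and 293 of the 770 genes stood at the deposited floor in a sample. *Dusp4* was lower after siRNA in both lines, by a log2 fold change of -0.45 in AKT Cre/NRAS and -1.73 in AKT/NRAS (limma, adjusted p = 0.0178 and 1.13e-06), and the *Akt1* probe averaged 388 normalized counts in AKT Cre/NRAS SCR cells against 19831 in AKT/NRAS SCR cells. The 3 AKT Cre/NRAS SCR libraries stood apart. Their log2 ratio of *Rpl19* to *Polr2a*, genes for a ribosomal protein and an RNA polymerase II subunit, was 5.48 to 6.88, against 4.72 to 5.03 in AKT Cre/NRAS siRNA libraries, 3.86 to 3.92 in AKT/NRAS siRNA libraries and 3.81 to 3.87 in AKT/NRAS SCR libraries. This ratio moves with every comparison that uses AKT Cre/NRAS SCR cells. It also differed between the lines under siRNA, by 1.00 and without overlap. The part of this ratio in the results was not tested. Of other cell types' markers on the panel, *Csf1r* and *Lat* of the leukocyte genes, *Kdr* of 2 endothelial genes and *Col1a2* and *Pdgfrb* of 4 fibroblast genes were at the floor in all 12 samples, while *Cd14*, *Jak3*, *Flt1*, *Pdgfra* and *Col1a1* were detected. Some of these moved with the lines and the siRNA. *Pdgfra*, a fibroblast gene, averaged 435 normalized counts in AKT Cre/NRAS siRNA cells, 317 in AKT Cre/NRAS SCR cells, 41.9 in AKT/NRAS siRNA cells and 55.7 in AKT/NRAS SCR cells. *Flt1*, an endothelial gene, averaged 454, 303, 974 and 1322 in the same order, and *Jak3*, a leukocyte gene, 513, 358, 213 and 234. *Flt1* was higher after siRNA in AKT Cre/NRAS cells (0.59, limma adjusted p = 0.0165) and lower after it in AKT/NRAS cells (-0.44, limma adjusted p = 0.00285). The part of these genes in the results was not tested. In bulk RNA, fewer cells of a type and less RNA per cell cannot be told apart.

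The largest differences lay between the lines. In AKT Cre/NRAS cells *Plce1* was far higher, *Prkca*, *Ppp3ca*, *Plcb1* and *Gna11* were lower and *Cacna1g* was at the floor, under both siRNA and SCR. *Dusp4* siRNA moved fewer of the genes, upward in AKT Cre/NRAS cells and mostly by little in AKT/NRAS cells.

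**Figure D1:**
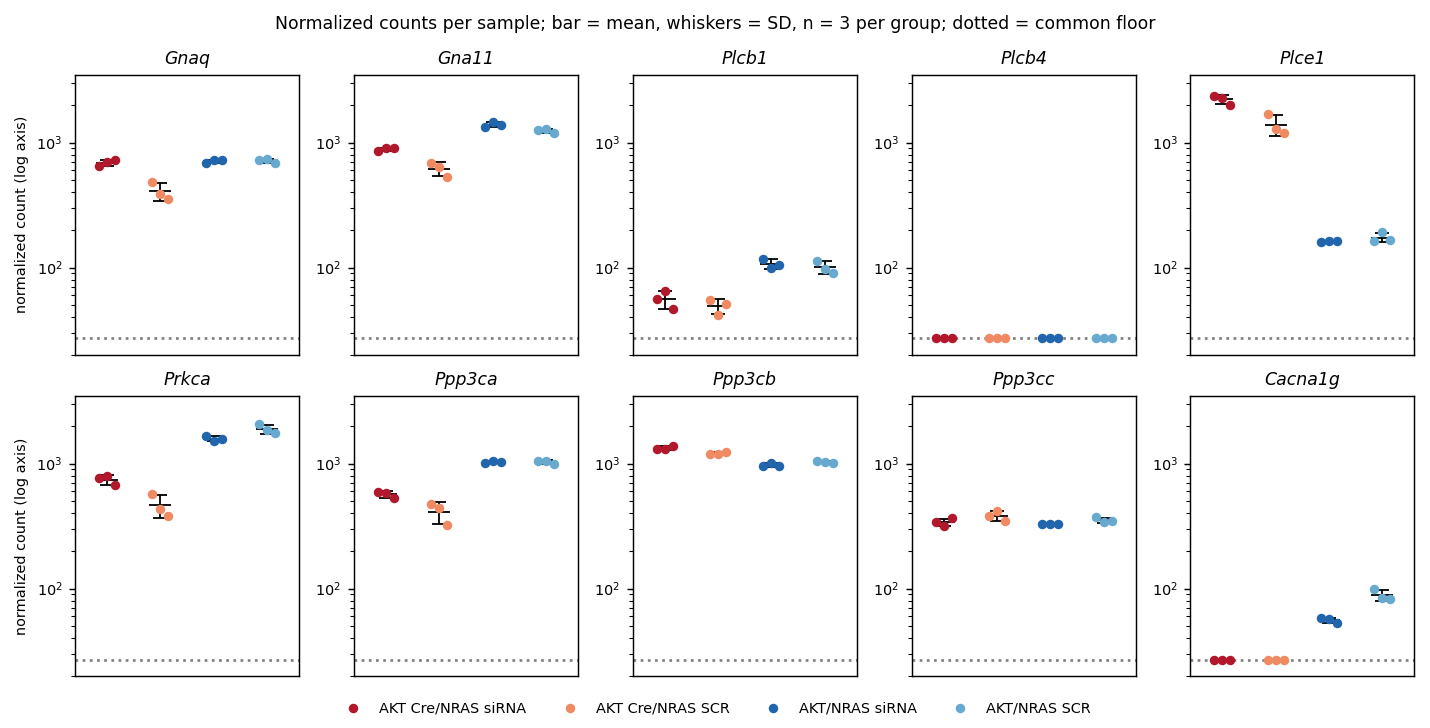
Normalized counts (log axis) of the 10 genes in every sample, with the 4 groups side by side in each panel; horizontal bars are means and whiskers SD over 3 samples, and the dotted line is the common floor of 27.1. *Plce1* was 1184 or more in all 6 AKT Cre/NRAS samples and 191 or less in all 6 AKT/NRAS samples, *Plcb4* was at the floor in all 12, and *Cacna1g* was at the floor in the 6 AKT Cre/NRAS samples.

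*Gnaq*, which encodes the alpha subunit that gives Gq its name, had 646, 693 and 729 normalized counts in AKT Cre/NRAS siRNA cells and 479, 386 and 356 in AKT Cre/NRAS SCR cells. It had 683, 722 and 722 in AKT/NRAS siRNA cells and 723, 740 and 684 in AKT/NRAS SCR cells. Only the AKT Cre/NRAS SCR samples stood apart, below the other 9. *Gnaq* was 1.70-fold higher after siRNA in AKT Cre/NRAS cells (log2 fold change 0.77, SE 0.12, limma adjusted p = 0.00329), while in AKT/NRAS cells the groups overlapped (-0.01, SE 0.05). Between the lines it differed under SCR (-0.82, SE 0.12), and under siRNA the samples overlapped (-0.04, SE 0.06, limma adjusted p = 0.518).

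*Gna11* encodes the close relative of Gq that couples to the same phospholipases. It had 857, 903 and 898 normalized counts in AKT Cre/NRAS siRNA cells and 689, 638 and 528 in AKT Cre/NRAS SCR cells. It had 1331, 1459 and 1381 in AKT/NRAS siRNA cells and 1249.9, 1273 and 1194 in AKT/NRAS SCR cells. None of the 4 groups overlapped with another, and the order from high to low was AKT/NRAS siRNA, AKT/NRAS SCR, AKT Cre/NRAS siRNA and AKT Cre/NRAS SCR. The siRNA raised *Gna11* in both lines, by 0.53 (SE 0.11) in AKT Cre/NRAS cells and by 0.17 (SE 0.04) in AKT/NRAS cells on the log2 scale, with limma adjusted p = 0.00542 and 0.0434. The call in AKT Cre/NRAS cells was lost with re-centring on the median (0.17, adjusted p = 0.115) and with the values as deposited (0.44, adjusted p = 0.488). The call in AKT/NRAS cells was lost without 5 of the 6 libraries, all but siRNA replicate 1 (0.13 to 0.20, adjusted p 0.0308 to 0.112 over the 6 libraries left out in turn). The highest value and lowest p were those without siRNA replicate 1, where the call held. It was lower in AKT Cre/NRAS cells by -0.65 (SE 0.05) under siRNA and by -1.01 (SE 0.10) under SCR.

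The 2 alpha subunits can be set against each other within a sample, where a scaling factor per sample cancels. The log2 ratio of *Gnaq* to *Gna11* averaged -0.36 ± 0.06 in AKT Cre/NRAS siRNA cells and -0.61 ± 0.10 in AKT Cre/NRAS SCR cells, a difference of 0.24 (SD, n = 3 each). It averaged -0.97 ± 0.04 in AKT/NRAS siRNA cells and -0.79 ± 0.01 in AKT/NRAS SCR cells, a difference of -0.18 (SD, n = 3 each). In neither line did the siRNA and SCR samples overlap, so the ratio was higher after siRNA in AKT Cre/NRAS cells and lower after siRNA in AKT/NRAS cells. With 3 samples against 3, the smallest p an exact two-sided permutation test can give is 0.1, and none is given for single ratios.

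*Plce1*, the gene for phospholipase C epsilon, had 2348, 2292 and 2012 normalized counts in AKT Cre/NRAS siRNA cells and 1686, 1283 and 1184 in AKT Cre/NRAS SCR cells. It had 161, 162 and 163 in AKT/NRAS siRNA cells and 163, 191 and 167 in AKT/NRAS SCR cells. The lines were far apart, and within AKT Cre/NRAS every siRNA sample was above every SCR sample. *Plce1* was 13.6-fold higher in AKT Cre/NRAS than in AKT/NRAS cells under siRNA (log2 fold change 3.77, SE 0.06, limma adjusted p = 5.89e-09) and 7.85-fold higher under SCR (2.97, SE 0.14, limma adjusted p = 2.55e-07). By size it was the 15th highest of 515 tested fold changes under SCR. The siRNA raised it 1.62-fold in AKT Cre/NRAS cells (0.69, SE 0.13, limma adjusted p = 0.00381). In AKT/NRAS cells the siRNA samples lay just below the SCR samples (-0.10, SE 0.08), and the difference did not pass the test.

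*Plcb1* and *Plcb4* encode phospholipases C beta, the enzymes that Gq activates. *Plcb1* was a low signal, with 55.8, 65.1 and 46.6 normalized counts in AKT Cre/NRAS siRNA cells, 54.6, 42.1 and 51.3 in AKT Cre/NRAS SCR cells, 117, 99.0 and 106 in AKT/NRAS siRNA cells and 113, 97.4 and 90.5 in AKT/NRAS SCR cells. The lines did not overlap and the treatments did. *Plcb1* was lower in AKT Cre/NRAS cells by -0.94 (SE 0.13) under siRNA and by -1.01 (SE 0.13) under SCR on the log2 scale (limma adjusted p = 0.00038 and 0.000146), and the siRNA differences of 0.17 (SE 0.16) in AKT Cre/NRAS cells and 0.10 (SE 0.11) in AKT/NRAS cells were within the spread. *Plcb4* was at the common floor in all 12 samples and was not tested. Before scaling, 1 AKT Cre/NRAS siRNA sample had 26 counts of it, above the deposited floor of 20, so its level was not measurable at this depth. The log2 ratio of *Plce1* to *Plcb1* averaged 5.32 ± 0.16 in AKT Cre/NRAS siRNA cells and 4.80 ± 0.24 in AKT Cre/NRAS SCR cells, against 0.59 ± 0.13 in AKT/NRAS siRNA cells and 0.80 ± 0.23 in AKT/NRAS SCR cells (SD, n = 3 each). The balance between these probes thus differed between the lines by 4.73 under siRNA and 4.01 under SCR, with no scaling factor in the ratio.

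*Prkca* encodes protein kinase C alpha, a conventional isoform that needs both calcium and diacylglycerol. It had 763, 794 and 671 normalized counts in AKT Cre/NRAS siRNA cells and 571, 437 and 381 in AKT Cre/NRAS SCR cells. It had 1659, 1510.2 and 1569 in AKT/NRAS siRNA cells and 2072, 1845 and 1744 in AKT/NRAS SCR cells. No groups overlapped, and the siRNA samples lay above the SCR samples in AKT Cre/NRAS cells and below them in AKT/NRAS cells. *Prkca* was 1.62-fold higher after siRNA in AKT Cre/NRAS cells (log2 fold change 0.70, SE 0.14), given without a test because this response had been singled out beforehand. The siRNA lowered it in AKT/NRAS cells by -0.25 (SE 0.07, limma adjusted p = 0.0382). That call was lost without siRNA replicate 2 or 3 or SCR replicate 1 or 2 (-0.31 to -0.18, adjusted p 0.0331 to 0.11 over the 6 libraries left out in turn), and with the values as deposited, without reference genes, the difference was 0.08. Between the lines *Prkca* was lower in AKT Cre/NRAS cells by -1.09 (SE 0.07) under siRNA and by -2.04 (SE 0.15) under SCR, that is 2.13-fold and 4.12-fold (limma adjusted p = 5.02e-06 and 3.13e-06).

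*Plce1* and *Prkca* differed by the same amount between siRNA and SCR in AKT Cre/NRAS cells, where their log2 ratio averaged 1.58 ± 0.05 after siRNA and 1.58 ± 0.04 with SCR (SD, n = 3 each). *Polr2a*, of the ratio that sets the AKT Cre/NRAS SCR libraries apart, was higher after siRNA there by a like amount (0.74), and its part was not tested. In AKT/NRAS cells the ratio was -3.29 ± 0.07 after siRNA and -3.44 ± 0.20 with SCR.

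Calcineurin is a pair of a catalytic and a regulatory subunit, and the 3 catalytic subunits behaved differently. *Ppp3ca*, the alpha subunit, had 590.3, 579 and 529.6 normalized counts in AKT Cre/NRAS siRNA cells and 478, 441 and 320.0 in AKT Cre/NRAS SCR cells. It had 1006, 1053 and 1025 in AKT/NRAS siRNA cells and 1054, 1052 and 991 in AKT/NRAS SCR cells. The AKT/NRAS groups overlapped, and the AKT Cre/NRAS groups lay below them and apart from each other. *Ppp3ca* was lower in AKT Cre/NRAS cells by -0.86 (SE 0.05) under siRNA and by -1.34 (SE 0.14) under SCR (limma adjusted p = 3.36e-06 and 3.7e-05). The siRNA raised it by 0.47 (SE 0.14) in AKT Cre/NRAS cells, with a limma adjusted p of 0.0241, and this call was lost when any single siRNA library was left out (0.44 to 0.52, adjusted p 0.0531 to 0.0964) and under 4 of the other 6 scalings. Without SCR replicate 3 it was 0.30 and passed. In AKT/NRAS cells it was -0.01 (SE 0.04).

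*Ppp3cb*, the beta subunit, had 1307, 1318 and 1377 normalized counts in AKT Cre/NRAS siRNA cells, 1205, 1201 and 1244 in AKT Cre/NRAS SCR cells, 955, 1016 and 952 in AKT/NRAS siRNA cells and 1046, 1037 and 1014 in AKT/NRAS SCR cells. The AKT Cre/NRAS groups did not overlap with each other or with AKT/NRAS, and the 2 AKT/NRAS groups overlapped. It was the catalytic subunit that was higher in AKT Cre/NRAS cells, by 0.45 (SE 0.04) under siRNA and by 0.24 (SE 0.07) under SCR on the log2 scale (limma adjusted p = 3.48e-05 and 0.00981). Under SCR that direction depended on the reference genes, with -0.04 and -0.18 when the first 10 or the first 5 were used. The siRNA differences were 0.13 (SE 0.08) in AKT Cre/NRAS cells and -0.08 (SE 0.04) in AKT/NRAS cells, and neither passed the test.

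*Ppp3cc*, the gamma subunit, had 339, 316 and 364 normalized counts in AKT Cre/NRAS siRNA cells, 383, 415 and 350.1 in AKT Cre/NRAS SCR cells, 328, 328 and 327 in AKT/NRAS siRNA cells and 371, 339 and 345 in AKT/NRAS SCR cells. The lines overlapped under both treatments (0.05, SE 0.06 under siRNA and 0.12, SE 0.10 under SCR), and no comparison of *Ppp3cc* passed the test with 15 reference genes. Under SCR *Ppp3cc* was called higher in AKT Cre/NRAS cells under 4 of the other 6 scalings (0.29 with all 20 reference genes, 0.48 with re-centring, 0.47 with quantile normalization and 0.63 with the values as deposited), and it was -0.16 and -0.30 with the first 10 and first 5 reference genes. The siRNA differences were -0.17 (SE 0.11) in AKT Cre/NRAS cells and -0.10 (SE 0.06) in AKT/NRAS cells.

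Within samples, the log2 ratio of *Ppp3cb* to *Ppp3ca* averaged 1.24 ± 0.12 in AKT Cre/NRAS siRNA cells against -0.08 ± 0.03 in AKT/NRAS siRNA cells (SD, n = 3 each). With SCR the ratio was 1.33 to 1.96 in AKT Cre/NRAS cells and -0.02 to 0.03 in AKT/NRAS cells. The lines therefore differed by 1.31 under siRNA and by 1.58 under SCR, values that a factor per sample does not change. The log2 ratio of *Ppp3cc* to *Ppp3ca* averaged -0.74 ± 0.18 in AKT Cre/NRAS siRNA cells and -0.09 ± 0.22 in AKT Cre/NRAS SCR cells, and these samples did not overlap. It averaged -1.65 ± 0.03 in AKT/NRAS siRNA cells and -1.56 ± 0.07 in AKT/NRAS SCR cells, which overlapped.

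**Figure D2:**
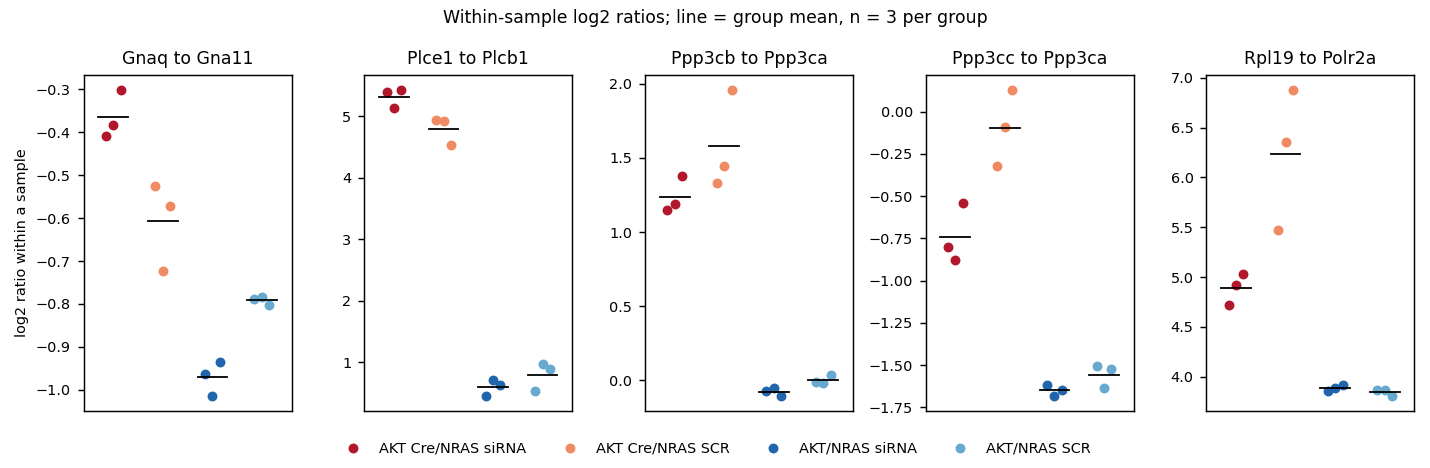
Log2 ratios of normalized counts within each sample for 4 pairs of the genes and for *Rpl19* to *Polr2a*, by group; points are samples, lines are means over 3 samples, and each panel has its own vertical axis. The *Plce1* to *Plcb1* ratio was 4.53 to 5.43 in AKT Cre/NRAS cells and 0.45 to 0.97 in AKT/NRAS cells, and the *Rpl19* to *Polr2a* ratio was highest in the AKT Cre/NRAS SCR libraries.

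*Cacna1g* encodes the pore of a T-type calcium channel, which lets calcium in at voltages near rest. It was at the common floor in all 6 AKT Cre/NRAS samples. It had 58.2, 57.0 and 53.2 normalized counts in AKT/NRAS siRNA cells and 98.5, 84.6 and 82.4 in AKT/NRAS SCR cells, so that the siRNA samples were all lower. Set against the floor, *Cacna1g* was at least 2.07-fold lower in AKT Cre/NRAS than in AKT/NRAS cells under siRNA and at least 3.27-fold lower under SCR. Before scaling, 3 of the 6 AKT Cre/NRAS samples were just above the deposited floor of 20. The siRNA lowered it in AKT/NRAS cells by -0.64 (SE 0.09, 1.56-fold, limma adjusted p = 0.00682), the 3rd lowest of 496 fold changes tested there. This call held under all 7 scalings, with a log2 fold change of -0.68 to -0.31, and without any single library. In AKT Cre/NRAS cells a response of *Cacna1g* to the siRNA was not detectable at this depth.

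**Figure D3:**
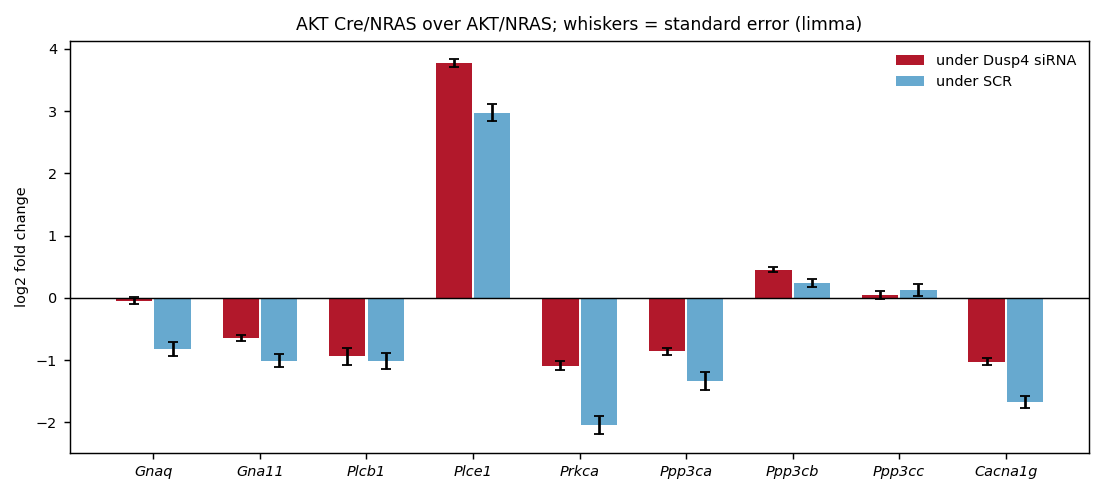
Log2 fold changes of AKT Cre/NRAS over AKT/NRAS cells under *Dusp4* siRNA and under SCR for the 9 genes above the floor; bars start at 0 and whiskers are standard errors from limma. *Plce1* was 3.77 and 2.97, *Prkca* -1.09 and -2.04, and the *Cacna1g* bars are fitted values against samples at the floor.

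*Cacna1g*, at the floor in AKT Cre/NRAS cells, was left out of the counts between the lines. Under siRNA, 6 of the other 8 members tested differed between AKT Cre/NRAS and AKT/NRAS cells, 2 higher and 4 lower, beside 74.5% of the 522 panel genes tested (36.6% higher, 37.9% lower). The median log2 fold change was -0.35 over these 8 members and 0.00 over the panel. Under SCR, 7 of the 8 differed, 2 higher and 5 lower, beside 76.9% of 515 panel genes (28.9% higher, 48.0% lower), with a median of -0.92 over the 8 members and -0.22 over the panel. The comparison under siRNA uses no AKT Cre/NRAS SCR library, but the *Rpl19* to *Polr2a* log2 ratio differed between the lines there too, by 1.00. Under siRNA the 6 members differed under every scaling and without any single library. Directions over the panel under SCR depend on the scaling, and with re-centring on the median 224 panel genes were higher and 181 lower. With the values as deposited, *Gnaq* (-0.32) and *Gna11* (-0.50) did not pass under SCR.

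After siRNA in AKT Cre/NRAS cells, with *Prkca* left out, 4 of the other 7 members tested were higher (*Gnaq*, *Gna11*, *Plce1* and *Ppp3ca*) and none was lower, beside 45.9% of 503 panel genes (40.6% higher, 5.37% lower). The median was 0.47 over these 7 members and 0.23 over the panel. At an unadjusted p under 0.05 they were again 4 higher and 0 lower. With the values as deposited none of the members and 1 panel gene passed in limma, with 2 members other than *Prkca* and 70 panel genes at an unadjusted p under 0.05. *Gnaq*, *Plce1* and *Prkca* kept a higher value after siRNA under all 7 scalings, at 0.41 to 1.22, 0.34 to 1.15 and 0.34 to 1.15, while *Plcb1*, *Ppp3cb* and *Ppp3cc* changed sign between scalings. With re-centring on the median, *Gnaq* and *Plce1* were called higher and *Ppp3cc* was called lower (-0.53), and the panel then held 32 higher and 136 lower genes. Among the SCR libraries, *Gnaq*, *Gna11*, *Plce1*, *Prkca* and *Ppp3ca* were all highest in replicate 1 and lowest in replicate 3, and the *Rpl19* to *Polr2a* ratio was lowest in replicate 1 (5.48) and highest in replicate 3 (6.88).

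**Figure D4:**
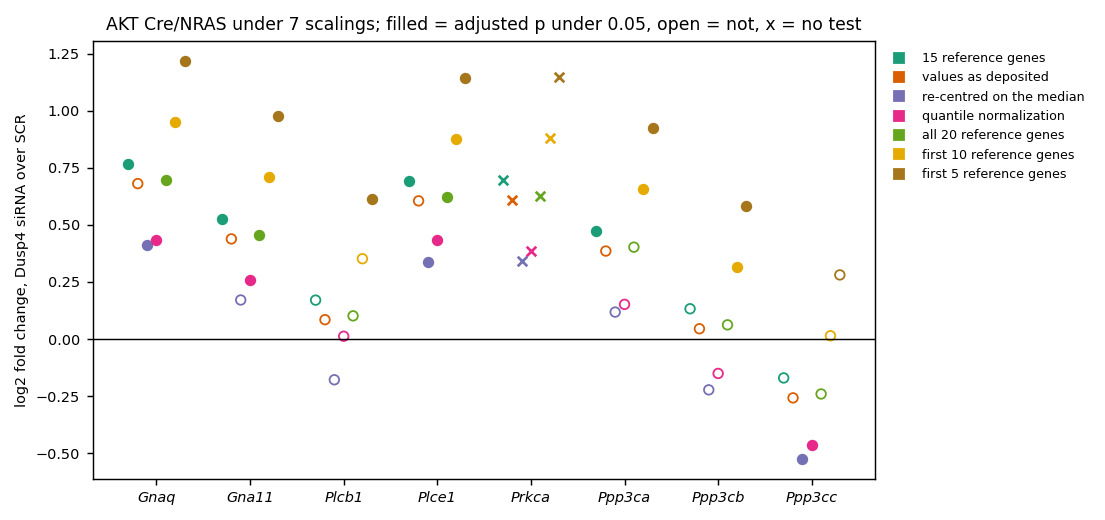
Log2 fold changes of *Dusp4* siRNA over SCR in AKT Cre/NRAS cells for 8 genes under 7 scalings (colours); filled points passed a limma adjusted p of 0.05 open points did not, and crosses (*Prkca*) are given without a test. *Gnaq* was above 0 under every scaling, from 0.41 to 1.22, and *Ppp3cc* ran from -0.53 to 0.28.

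After siRNA in AKT/NRAS cells, 1 of the 9 members tested was higher (*Gna11*) and 2 were lower (*Prkca* and *Cacna1g*), beside 17.3% of 496 panel genes (5.44% higher, 11.9% lower). The median was -0.08 over the members and -0.03 over the panel. With the values as deposited 5 members passed, 4 higher and 1 lower, and 287 of the 290 panel genes called were higher.

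The test of the difference between these responses, AKT Cre/NRAS minus AKT/NRAS, passed for 5 of 7 members, all in the positive direction, with *Prkca* and *Cacna1g* left out, beside 45.3% of 525 panel genes (40.6% positive, 4.76% negative). The differences were 0.79 for *Plce1* (SE 0.17), 0.78 for *Gnaq* (SE 0.14), 0.48 for *Ppp3ca* (SE 0.17), 0.36 for *Gna11* (SE 0.12) and 0.22 for *Ppp3cb* (SE 0.06). For *Prkca*, whose response in AKT Cre/NRAS cells had been singled out beforehand, the difference was 0.95 (SE 0.18), given without a test. The value of *Cacna1g*, 0.64 (SE 0.10), comes only from its fall in AKT/NRAS cells, since AKT Cre/NRAS samples were at the floor. *Plcb1* (0.07, SE 0.19) and *Ppp3cc* (-0.07, SE 0.11) did not pass. *Ppp3cc* was called negative with re-centring on the median (-0.48, limma adjusted p = 0.00677) and with quantile normalization (-0.42, limma adjusted p = 0.0134). It was -0.49 and not called with the values as deposited. Using the first 10 and first 5 reference genes, *Ppp3cc* was positive (0.15 and 0.41) and not called. The median was 0.36 over the 7 members and 0.25 over the panel. With the values as deposited none of the members passed in limma, and of those other than *Prkca* and *Cacna1g* 0 had an unadjusted p under 0.05, while 32 panel genes passed. *Gna11* changed sign with the deposited values and with re-centring (-0.06 and -0.05), *Ppp3cb* changed sign with both and with quantile normalization (-0.21, -0.20 and -0.12), and *Ppp3ca* was 0.06, 0.07 and 0.10 under these 3 scalings and was not called. With all 20 reference genes, *Ppp3ca* (0.41, adjusted p = 0.052) and *Ppp3cb* (0.14, adjusted p = 0.0872) did not pass. The calls of *Gna11* and *Ppp3ca* were lost in 6 and 8 of the 12 fits that left out 1 library (0.25 to 0.44 and 0.30 to 0.59). This test shares its AKT Cre/NRAS SCR libraries with the comparisons above. It also sets unequal silencing side by side, with *Dusp4* at -0.45 in AKT Cre/NRAS and -1.73 in AKT/NRAS cells, whose part was not tested.

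**Figure D5:**
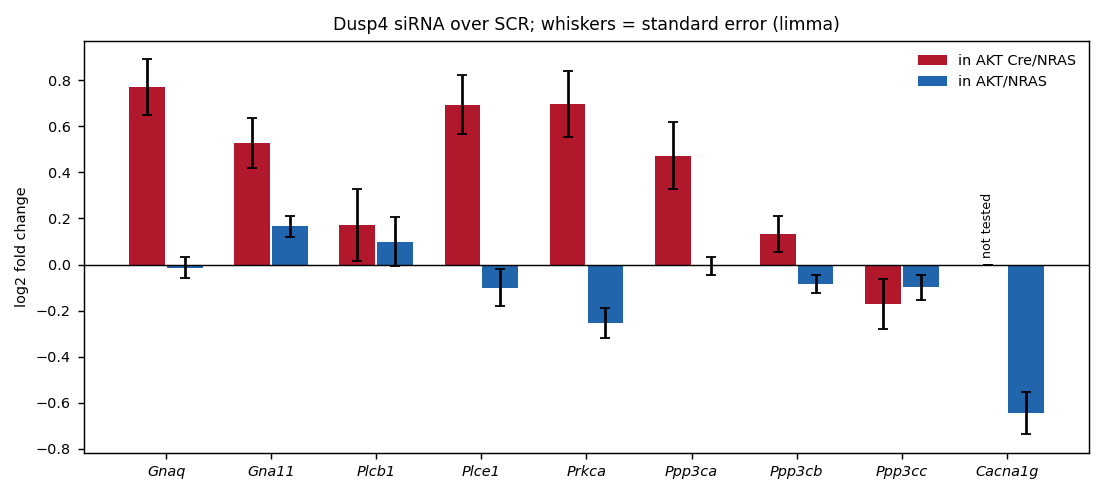
Log2 fold changes of *Dusp4* siRNA over SCR in AKT Cre/NRAS and in AKT/NRAS cells, with standard errors from limma as whiskers. *Prkca* was 0.70 in AKT Cre/NRAS and -0.25 in AKT/NRAS cells, and *Cacna1g* was not tested in AKT Cre/NRAS cells.

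Few further genes of the route were above the floor and could be tested. Of 5 other phospholipase C, protein kinase C and diacylglycerol genes, *Prkcb*, *Rasgrp1* and *Rasgrp2* were at the floor in all 12 samples. *Plcg2*, a phospholipase C gamma of blood cells, averaged 43.1 normalized counts in AKT Cre/NRAS siRNA cells against 33.3 in AKT/NRAS siRNA cells (0.37, limma adjusted p = 0.0448). It was 1 of 2 genes of the list tested there, beside 74.5% of the panel called, and the only call of the list in any comparison. Of 5 calcineurin partners, 3 were at the floor throughout and 2 were tested. Of these 2, 1 was called between the lines under SCR and 1 under siRNA, beside 76.9% and 74.5% of the panel. In the test of the difference between responses 1 of the 2 was called, beside 45.3% of the panel. *Ppp3r1*, the regulatory subunit of calcineurin, averaged 2174 in AKT Cre/NRAS siRNA cells, 1965 in AKT Cre/NRAS SCR cells, 2230.2 in AKT/NRAS siRNA cells and 2328 in AKT/NRAS SCR cells, and passed only between the lines under SCR (-0.25). *Nfatc1*, a target of calcineurin, averaged 86.9 in AKT Cre/NRAS siRNA cells and 61.7 in AKT/NRAS siRNA cells (0.49, limma adjusted p = 0.00553). Under SCR it averaged 71.3 in AKT Cre/NRAS cells and 79.9 in AKT/NRAS cells, the other direction, and was not called.

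Of 14 other calcium channel subunits, 10 were at the floor in all samples, including *Cacna1h*, the pore of another T-type channel. *Cacna2d1*, an auxiliary subunit, was lower in AKT Cre/NRAS cells by -0.95 under siRNA and by -1.37 under SCR, and fell after siRNA in AKT/NRAS cells (-0.31, limma adjusted p = 0.0182), as did *Cacna1g*. *Cacnb2*, a beta subunit, was higher in AKT Cre/NRAS cells by 1.79 under siRNA and by 1.13 under SCR. Of 9 other G protein and cAMP kinase genes 7 were tested, and after siRNA in AKT Cre/NRAS cells 4 were higher and none lower, beside 40.6% and 5.37% of the panel. These were *Gnas*, the Gs alpha subunit (0.29), and the protein kinase A subunits *Prkaca* (0.48), *Prkacb* (0.56) and *Prkar2a* (0.51). Under SCR 1 of the 7 was higher in AKT Cre/NRAS cells and 6 were lower, beside 28.9% and 48.0% of the panel. *Prkar2b*, a regulatory subunit, was the higher one (0.73), and it was also higher under siRNA (0.98). The test of the difference between responses passed for 7 of these 7 genes and 3 of 4 channel genes tested, all positive. Beside these, 40.6% of the panel was positive. *Gng7*, among these 7 and among the 6 lower under SCR, was at the floor in 2 of 3 samples of each AKT Cre/NRAS group. It averaged 59.2 in AKT/NRAS siRNA cells and 70.5 in AKT/NRAS SCR cells, so its calls rest mainly on AKT/NRAS cells. The medians of the 2 lists were 0.45 and 0.49, against 0.36 over the 7 members.

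Of 9 genes known as targets of NFAT or calcium in other cells, *Il2*, *Il4*, *Fasl*, *Nr4a3* and *Il6* were at the floor throughout. Of the other 4, *Tnf* was at the floor in every AKT Cre/NRAS sample and *Csf2* in every AKT/NRAS sample. Each was tested between the lines only through the other line, so neither is counted. Under both treatments *Fos* was lower and *Nr4a1* higher in AKT Cre/NRAS cells, beside 74.5% of the panel called under siRNA and 76.9% under SCR. *Fos* averaged 55.2 in AKT Cre/NRAS siRNA cells, 49.0 in AKT Cre/NRAS SCR cells, 189 in AKT/NRAS siRNA cells and 263 in AKT/NRAS SCR cells, and fell after siRNA in AKT/NRAS cells (-0.48, limma adjusted p = 0.00816). *Nr4a1* was higher in AKT Cre/NRAS cells by 1.16 under siRNA and by 0.53 under SCR.

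As a description over the 12 samples, the panel genes most like each member among 446 genes above the floor in every sample were *Prkacb* (Pearson r 0.98) and *Atrx* for *Gnaq*, *Pik3r2* (0.99) and *Erbb2* for *Gna11*, *Setbp1* (0.97) and *Prkdc* for *Plcb1*, and *Spry4* and *Hmga1* for *Plce1* (1.00 each). They were *Flt1* and *Smarca4* for *Prkca* (0.99 each), *Erbb2* and *Shc1* for *Ppp3ca* (1.00 each), and *Chuk* and *Dtx4* for *Ppp3cb* (0.98 each). *Ppp3cc* had no close companion, with 0.61 for *Cdk4* and 0.60 for *Ccna2*. The points share line, scaling and library.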

How the data were processed

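Total RNA of 12 samples was measured with the nCounter® Mouse PanCancer Pathways panel, and columns were assigned to samples by the run number in the labels. The authors processed the scans in nSolver. The deposited values are a signal per probe, equal to a barcode count times 1 positive-control factor per sample (0.827 to 1.27), with values at or under 20 set to 20. At least 99.8% of values above the floor came out whole within 0.01. The reference-gene step named in the methods is not in these values and was completed with geNorm over all 12 samples, which kept 15 of 20 reference genes. Scaled values under 27.1, the highest scaled floor, were set to it, and a gene entered a comparison only if some sample exceeded it. Floored counts are unknown, so no count model was fitted. log2(value + 1) was tested with limma 3.58.1 in R 4.3.3 (intensity trend, samples of the comparison only, Benjamini-Hochberg over all genes tested, threshold 0.05) and checked on simulated data. Fold changes on this scale understate low genes. Figures used matplotlib 3.10.9 in Python 3.11.15.

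The members, gene lists, scaling and floor were chosen with earlier results of these data known. Of the check genes, *Rpl19* is a reference gene that was kept and *Polr2a* is one that was not. The text names the members, up to 4 genes of each list with the smallest p, the 2 genes most like each member, and *Dusp4*, *Akt1*, *Rpl19* and *Polr2a* as checks, of which *Akt1* was added after its values were seen, as were list genes beyond 4 that were at the floor. Deviations of same-numbered siRNA and SCR samples of AKT Cre/NRAS had r = 0.22, 0.12 and 0.23, and in the other comparisons r was -0.08 to 0.21. Whether the numbers pair the samples is not known. The main fits did not pair them, and a replicate block was fitted as an alternative. Whether replicates were separate cultures is given only as biological replicates in the methods. Alternatives were the deposited values, re-centring, quantile normalization, other reference gene sets, the pseudocount, the filter, Benjamini-Yekutieli adjustment, 1 fit over the 4 groups, the replicate block and leaving out each library. A leukocyte marker is not reported here.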

Additional observations from a re-analysis of the deposited data

Results flagged for a closer look

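The response to *Dusp4* siRNA differed between AKT Cre/NRAS and AKT/NRAS cells for 5 of the 7 genes counted (*Plce1*, *Gnaq*, *Ppp3ca*, *Gna11* and *Ppp3cb*) by limma's test of that difference with 15 reference genes. Of 525 panel genes, 45.3% passed the same test, 40.6% with a positive and 4.76% with a negative difference. The panel median was 0.25. *Prkca* is given as a description, without a test. The silencing itself was unequal, with *Dusp4* at -0.45 in AKT Cre/NRAS and -1.73 in AKT/NRAS cells after siRNA. *Dusp4* averaged 4023 normalized counts in AKT Cre/NRAS siRNA cells and 1228 in AKT/NRAS SCR cells. The part of this inequality in the responses was not tested. On the log2 scale, AKT Cre/NRAS minus AKT/NRAS, the differences were 0.95 for *Prkca*, 0.79 for *Plce1*, 0.78 for *Gnaq*, 0.64 for *Cacna1g*, 0.48 for *Ppp3ca*, 0.36 for *Gna11* and 0.22 for *Ppp3cb*. For *Prkca* the siRNA samples lay above the SCR samples in AKT Cre/NRAS cells and below them in AKT/NRAS cells. The value of *Cacna1g* comes from AKT/NRAS cells alone, since AKT Cre/NRAS samples were at the floor. With the values as deposited none of these differences passed. *Gna11* changed sign with deposited values and re-centring, *Ppp3cb* with these and quantile normalization, and *Ppp3ca* was not called under any of the 3 (0.06, 0.07 and 0.10). *Ppp3cc*, not among the 5 genes, was called negative with re-centring (-0.48) and with quantile normalization (-0.42). Using the first 10 and first 5 reference genes, *Ppp3cc* was positive (0.15 and 0.41) and not called. The *Gnaq* to *Gna11* log2 ratio differed in its response by 0.42, with every sample in 1 direction in each line, and this difference was not tested. The *Rpl19* to *Polr2a* ratio moves with all of these that use AKT Cre/NRAS SCR libraries, and its part was not tested.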

How the results depend on the processing

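Of 835 single values of the genes under alternatives, 712 kept their direction and side of the threshold, 67 lost a call, 12 gained one and 44 changed sign. Of 95 member counts, 83 stayed within 1.5 times, and all counts here include *Prkca* and *Cacna1g* where they were fitted. In AKT Cre/NRAS cells, siRNA against SCR gave 5 members, 0 with the deposited values, 1 without a filter on low values and 4 to 5 without single libraries, while panel calls were 231, 1 with deposited values, 90 with quantile normalization, 56 without a filter, 70 with Benjamini-Yekutieli and 99 to 297 without single libraries, lowest without siRNA replicate 1, 2 or 3 (99, 121 and 118) or SCR replicate 2 (131). In AKT/NRAS cells it gave 3 members, 5 with deposited values, 1 each without a filter, with Benjamini-Yekutieli and in 1 fit over the 4 groups, and 1 to 3 without single libraries, with panel calls of 86, 290, 45, 10, 23 and 39 to 92 in that order. The count was 1 without AKT/NRAS siRNA replicate 2 or 3 or SCR replicate 1 or 2. The test of the difference between responses gave 7 members, 0 with deposited values, 4 with Benjamini-Yekutieli and 5 to 7 without single libraries, with panel calls of 238, 32, 101 and 176 to 307. Between the lines, members called were 7 to 9 under SCR and 7 under siRNA over the alternatives, except 6 under siRNA with a mean of at least 50 normalized counts, which drops *Cacna1g*, and in these comparisons *Plce1*, *Prkca*, *Ppp3ca*, *Plcb1*, *Gna11* and, where tested, *Cacna1g* kept their direction. The causes were not tested.

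With the replicate block the member counts were 5, 3, 8, 7 and 7 for the 2 siRNA comparisons, the lines under SCR and under siRNA, and the difference between responses, the same as without it. Without the block, 45.9%, 17.3%, 76.9%, 74.5% and 45.3% of the panel genes tested were called, in the same order. The block moved no panel count by over 1.5 times.

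Changes of sign, as log2 fold changes, were as follows. For siRNA in AKT Cre/NRAS cells, re-centring gave *Plcb1* -0.18 and *Ppp3cb* -0.22, quantile normalization gave *Ppp3cb* -0.15, and the first 10 and first 5 reference genes gave *Ppp3cc* 0.014 and 0.28. For siRNA in AKT/NRAS cells, deposited values gave *Gnaq* 0.32, *Plce1* 0.23, *Prkca* 0.081, *Ppp3ca* 0.33, *Ppp3cb* 0.25 and *Ppp3cc* 0.23, re-centring gave *Gnaq* 0.044 and *Ppp3ca* 0.052, quantile normalization gave *Gnaq* 0.039 and *Ppp3ca* 0.056, and without single libraries *Gnaq* was -0.046 to 0.013 and *Ppp3ca* -0.034 to 0.010. Between the lines under SCR, the first 10 reference genes gave *Ppp3cb* -0.042 and *Ppp3cc* -0.16, and the first 5 gave *Ppp3cb* -0.18 and *Ppp3cc* -0.30. Under siRNA, *Gnaq* was 0.042 with deposited values, 0.059 with all 20 reference genes, 0.022 with the first 5 and -0.083 to 0.0041 without single libraries, and *Ppp3cc* was -0.0056 with re-centring, -0.0077 with the first 10 and -0.0014 to 0.10 without single libraries. For the difference between responses, deposited values gave *Gna11* -0.062, *Plcb1* -0.35 and *Ppp3cb* -0.21, re-centring gave *Gna11* -0.052, *Plcb1* -0.34 and *Ppp3cb* -0.20, quantile normalization gave *Plcb1* -0.013 and *Ppp3cb* -0.12, the first 10 and first 5 reference genes gave *Ppp3cc* 0.15 and 0.41, and *Plcb1* was -0.045 to 0.19 without single libraries.

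Depth limits *Plcb4* and *Cacna1g*, which stand at or near the floor, and *Plcb1*, whose counts were 46 to 123.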

Other observations

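Deviations from the group means ran together for some pairs of the genes over the 12 samples, with r = 0.89 between *Gna11* and *Ppp3ca*, 0.87 between *Gnaq* and *Gna11* and 0.78 between *Plce1* and *Prkca*. *Plce1* and *Prkca* were opposed over the 12 samples as a whole (r = -0.87). These are descriptions, and the points share scaling and library.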
